A study of Caenorhabditis japonica with 3 samples.

Results

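In embryos of the nematode *Caenorhabditis japonica*, 83 of the 3955 genes in the deposited table had 3 or more listed 3′ end peaks. Whether each listed peak is a separate end of transcripts was not tested. These genes held 267 of the 4619 listed 3′ end peaks: 66 genes had 3 peaks, 16 had 4 peaks and 1 had 5. They were chosen from the table by their number of peaks alone, by taking every row with a numeric location whose gene had at least 3 such rows. For each peak the measure described here is its share, the percentage of the reads in the gene's total row that fell in that peak.

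Alternative polyadenylation is the cutting and tailing of a gene's transcripts at more than 1 position, so that the same gene gives mRNAs with different 3′ ends. Ends that lie close together usually differ in the last stretch of the 3′ untranslated region, while ends that lie far apart can also differ in the last exon. In animals the length of the 3′ untranslated region sets which binding sites for microRNAs and RNA-binding proteins a transcript carries, and many genes change their preferred end during development. The first cell cycles of a nematode embryo run largely on mRNAs laid down by the mother, which are later replaced by transcripts of the embryo itself.

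The embryos were cut from adult females grown by the standard methods for *C. elegans*, a related species, and kept at 20°C from the 4-cell stage until they were frozen. Single embryos were sequenced by CEL-Seq, which gives each embryo a barcode, pools the barcoded embryos and reads the 3′ ends of polyadenylated transcripts. The table holds 46 embryos in 3 pooled libraries: 16 early embryos (1, 2 and 4 cells, then 10 to 130 minutes after the 4-cell stage), 16 middle embryos (140 to 290 minutes) and 14 late embryos (300 to 430 minutes), with 1 embryo for each time. No embryo was treated or carried a mutation named in the labels, and no symbol is paired with the gene identifiers in the files, so the genes are given by identifier and no function is stated.

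Each library holds a single time window, so a difference between windows cannot be told apart from one between libraries. Within a library, time also follows barcode number, upwards in the early library and downwards in the middle one. In the late library it runs upwards apart from the embryos at 330 and 340 minutes. The columns for 330 and 340 minutes carry suffixes and barcodes 15 and 16, and which of the embryos named for these times they hold is not certain. An embryo had between 1719 and 454691 reads in all listed genes (median 61827), and 14 embryos (5 early, 4 middle and 5 late) had fewer than 0.25 of that median. The 83 genes took 4.78% of all reads, and between 64 and 23376 reads per embryo. Shares in single embryos are given where the gene had at least 5 reads there, which held for a median of 34 of the 46 embryos per gene (range 14 to 45).

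Most neighbouring peaks lay close together. The files state neither where locations start nor which way they run, so peaks are described as lower or higher and distances as differences between locations. Over the 184 neighbouring pairs the smallest gap was 21, the quartiles were 28 and 111.75, the median was 46 and the largest gap was 6635. The 480 genes with exactly 2 peaks had the same smallest gap, 21, the same median, 46, and quartiles of 29 and 94.25. Gaps under 50 made up 52.7% (97 of 184) in the genes with 3 or more peaks and 54.6% of the 480 gaps in genes with 2 peaks, and gaps of at least 100 made up 26.6% and 24.4%. The sizes of the gaps were thus nearly the same with 3 or more peaks as with 2, as the plot of gap sizes shows.

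**Figure D1:**
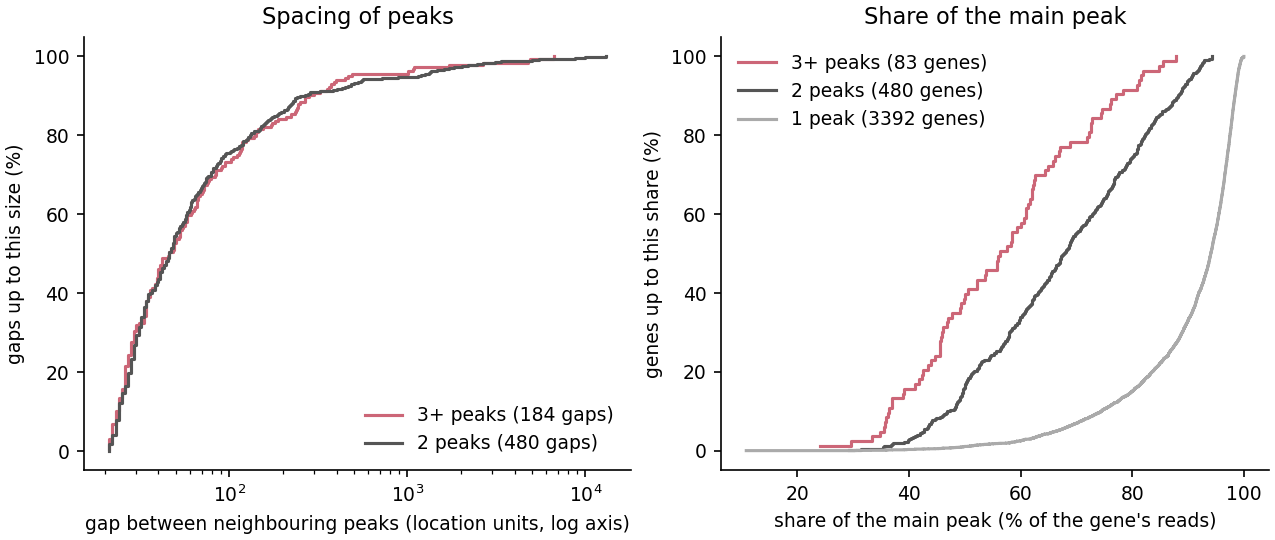
Left, cumulative percentage of gaps between neighbouring peaks (difference in location, log axis) for the 184 gaps in genes with 3 or more peaks and the 480 gaps in genes with 2. Right, cumulative percentage of genes by the share of the main peak (% of the gene's reads over 46 embryos) for genes with 3 or more, 2 and 1 peaks. The gap curves lie on each other around their common median of 46, while the main share falls from a median of 94.1% with 1 peak to 67.7% with 2 and 56.4% with 3 or more.

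The arrangement of the peaks differed from gene to gene. In 22 genes every gap was under 50, so that all their ends lay in a single tight cluster. The narrowest were CJA14108, whose 3 peaks at 1754, 1777 and 1798 spanned 44, and CJA04442, whose peaks at 106, 128 and 151 spanned 45. Another 30 genes held both a gap under 50 and a gap of at least 100, that is, ends close together and ends set apart in the same gene. Only 5 genes had all gaps at 100 or more: CJA01121, CJA05854, CJA15042, CJA15342 and CJA35199. When peaks closer than 50 were joined, 22 genes kept 1 site, 37 kept 2, 22 kept 3 and 2 kept 4. The span from the lowest to the highest peak had a median of 141 and quartiles of 81 and 335.

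In 8 genes a gap of at least 1000 separated neighbouring ends. CJA01121 had the widest span, 6780: its peaks at 2965 and 3110 were followed by a peak at 9745. CJA12820 was next with a span of 4923, from a close pair at 1909 and 1931 to a peak at 6832. In CJA12820 the far peak was a minor one, with 13.6% of the gene's 1968 reads against 37% and 39.0% for the pair. The peak with 37% led in the summed reads of the middle library and the one with 39.0% led in the early and the late, and in 13 of 32 embryos a peak other than the main one led.

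Reads were spread unevenly over the peaks of a gene. The main peak, the one with the most reads over the 46 embryos, held a median of 56.4% of its gene's reads (range 24.1% to 87.9%), and more than 50% in 51 of the 83 genes. The least used peak of a gene held a median of 9.02%, and 62 of the 267 peaks held under 10%. The inverse of the summed squared shares among the peaks, which equals the number of peaks when all are used alike, had a median of 2.22 and ranged from 1.24 to 4.52. A median of 6.24% of a gene's reads lay outside its listed peaks. The genes with more peaks were also the more deeply read, with medians of 2057 reads per gene for 3 or more peaks, 1112.5 for 2 and 476 for 1. The fewest reads of a gene were 557, 231 and 103 in the same order. Among the peaks of the 83 genes the fewest reads were 98 and the smallest share was 4.04%. If peaks were listed only above such a floor, a gene with more peaks would need more reads. The part of read depth in the number of listed peaks was not tested.

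The main peak stood at the lowest location in 34 genes, at an inner one in 31 and at the highest in 18. Among the 66 genes with 3 peaks, where each place counts a single peak, the numbers were 28, 23 and 15. Of the genes with 2 peaks, 242 of 480 (50.4%) had their main peak at the higher location.

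The 5 genes with the most reads divided their summed reads in much the same way in all 3 libraries. CJA16262, with 19625 reads, put 58.4%, 62.5% and 63.5% of its summed early, middle and late reads in its peak at 1985, and 33.5%, 30.7% and 30.1% in the peak at 2140. CJA18457 put 60.5%, 63.3% and 66.5% in the peak at 4645, the lowest of its peaks, and CJA12760 put 79.3%, 81.1% and 82.9% in the peak at 121. None of their peaks passed the test for a change with embryo position. In CJA07670 the peaks at 2858 and 2908 were nearly level, at 46.0% and 39.1% of the summed early reads, 44.4% and 41.4% of the middle and 47.0% and 40.5% of the late, the peak at 2998 held 5.05%, 6.12% and 5.32%, and the main peak lost its lead in 11 of 43 embryos. The tight cluster of CJA04442 was the steadiest of these genes: its peaks at 106, 128 and 151 held 67.7%, 18.2% and 11.6% of the early reads, 65.9%, 18.2% and 11.6% of the middle reads and 67.3%, 18.1% and 11.4% of the late reads, and the peak at 106 led in all 42 embryos.

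Genes with more than 3 peaks ranged from nearly even use to a single strong end. CJA06689, the gene with 5 peaks, had a low pair at 1193 and 1228 and a high group at 2308, 2332 and 2355, which held 18.4%, 19.6%, 24.1%, 7.03% and 21.8% of its 2277 reads. Its main peak trailed another peak in 22 of 36 embryos, and the summed reads were led by the peak at 1228 in the early library and by the one at 2308 in the middle and the late. No peak of this gene passed the test with position, and for the main peak the medians over embryos were 18.2%, 23.9% and 33.3% (n = 13, 14 and 9). CJA10456, with 4 peaks, had the opposite profile: the lowest peak, at 3656, held 72.3% of 4665 reads and led in all 39 embryos, while the peaks at 3717, 3745 and 3987 held 5.42%, 6.99% and 4.89%.

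The main peak lost its lead in 439 of 2681 gene and embryo pairs (16.4%), and a further 102 pairs were tied. The share of such pairs was 17.4% in the early, 16.3% in the middle and 15.1% in the late library. In 17 genes the main peak was never overtaken, in 30 genes 2 different peaks led in some embryo, in 31 genes 3 did and in 5 genes 4 did. Only CJA06689 and CJA08650 were led by another peak in over 50% of their embryos. By pairs, switching occurred in 4.18% in the 36 genes with a main share of 60% or more and in 38.8% in the 20 genes with a main share under 45%. The main share and the switches come from the same reads, and a peak with a large share is seldom overtaken. This difference therefore follows from the definitions and is no separate result. Many pairs rest on few reads, and no test was made of the number of switches.

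**Figure D2:**
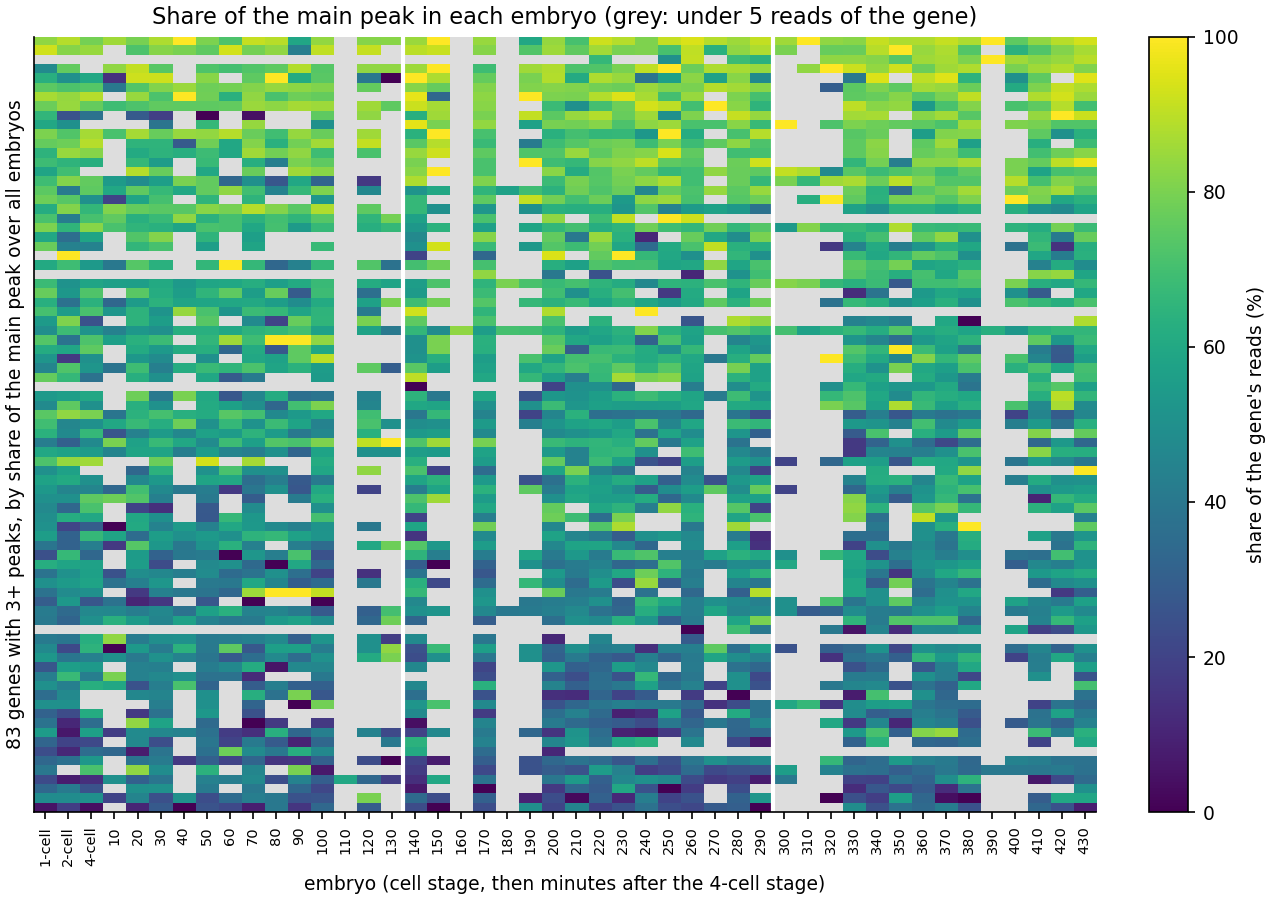
Share of the main peak (colour, % of the gene's reads) in each of the 46 embryos (columns, in order of stage, white lines between the early, middle and late libraries) for the 83 genes (rows, by share over all embryos). Grey cells had under 5 reads of the gene, and the nearly grey columns are the shallow embryos. Rows keep their level over most columns, and the spread within a row is widest in the low rows.

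Averaged over genes, the use of the main peak changed little along the course. In embryos with at least 40 of the 83 genes measured, the mean share of the main peak ran from 48.6% to 58.5% (median 55.0%, n = 14) in the early library. It ran from 53.2% to 62.9% (median 56.1%, n = 13) in the middle and from 53.8% to 61.3% (median 57.6%, n = 9) in the late library, so the ranges of the 3 libraries overlapped. In the same embryos the mean share of the highest-location peak ran from 24.1% to 30.1% (median 26.3%) in the early library. It ran from 22.2% to 28.6% (median 24.5%) in the middle and from 22.3% to 25.3% (median 24.5%) in the late. The ranges overlapped, but the early median lay above the highest late value. This difference was not tested.

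In 13 genes the peak with the most summed reads was not the same in all libraries that held at least 20 reads of the gene. The 6 of these with the most reads are CJA14682, CJA12295, CJA13213, CJA04724, CJA13772 and CJA06335. CJA14682 had 4 peaks, at 5214, 5341, 5407 and 5501. The peak at 5341 held 50.3% of its summed early reads, 29.9% of the middle and 37.3% of the late, while the peak at 5407 held 14.8%, 36.8% and 29.8% and led in the middle library. In single embryos the peak at 5407 had a median of 12.4% in the early library (range 0 to 25.6%, n = 8), 35.0% in the middle (18.5% to 63.0%, n = 13) and 30.5% in the late (16.0% to 41.2%, n = 13). These ranges overlapped, and the slope with position did not pass (adjusted p = 0.318 by quasi-binomial regression). The level of the gene rose over the same windows, by 2.75 ± 0.38 on the log2 scale from early to middle (adjusted p = 9.4e-09 by edgeR's quasi-likelihood test) and by 1.36 ± 0.34 from middle to late (adjusted p = 0.0014). The mean level of the peak at 5407 was 30.4 ± 39.7 CPM (counts scaled to library size, relative to the genes tested for level; SD, n = 16) in the early, 490.2 ± 542.8 (n = 16) in the middle and 958.2 ± 502.0 (n = 14) in the late library.

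The leading peak also differed between libraries in CJA12295, CJA13213 and CJA13772. In CJA12295 the peaks at 953 and 1071 held 35.4% and 33.6% of the summed early reads, 35.4% each of the middle reads and 31.9% and 38.6% of the late reads. In CJA13213 the peak at 5560 led in the early library with 48.8% against 37.6% for the peak at 5390, and the peak at 5390 led in the middle with 52.5% against 32.6% and in the late with 43.0% against 42.1%. In CJA13772 the lowest peak, at 5433, held 67.9% of the late reads after 33.4% in the early and 29.4% in the middle. In the middle library the peak at 6019 led with 39.2%, and it held 15.1% in the late. The median share of the peak at 5433 over embryos was 43.3% (6.35% to 63.2%, n = 15), 33.3% (7.41% to 51.2%, n = 13) and 63.5% (30.8% to 84.4%, n = 9), so the libraries overlapped here too, and its slope over the course did not pass (adjusted p = 0.121 by quasi-binomial regression).

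The share of each peak was then tested for a trend over the 46 embryos. The quasi-binomial regression used the place of the embryo in the course (position: the 1-, 2- and 4-cell embryos 1 step apart, later embryos 1 step for every 10 minutes), over all 1215 peaks of genes with 2 or more peaks that had enough embryos. Of the 267 peaks, 29 changed with position at an adjusted p under 0.05, which is 10.9% beside 10.6% of all peaks tested and 10.5% of the 948 peaks tested in genes with 2 peaks. Of these, 14 rose (5.43% of all peaks rose) and 15 fell (5.19% of all peaks fell). The called peaks lay in 19 of the 83 genes (22.9%), beside 14.2% of the 557 genes tested and 12.7% of those with 2 peaks. The genes compared differ in their number of peaks, and this difference between the counts by gene was not tested. At an unadjusted p under 0.05 there were 70 of the 267 peaks (26.2%), beside 24.9% of all peaks tested.

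The shares of a gene's peaks are parts of the same total, so a rise of one peak lowers what is left for the others. Opposite calls in a gene, and the near balance of rising and falling peaks, are thus not separate results. In 9 of the 19 genes a peak rose while another fell. The rising peak lay above the falling one in 4 of these genes and below it in 5. By place in the gene, 2 peaks rose and 8 fell among the 83 highest-location peaks, 9 rose and 2 fell among the 101 inner peaks, and 3 rose and 5 fell among the 83 lowest-location peaks. The main peak itself rose in 7 genes and fell in 3. Over all peaks tested, whatever their place, 5.43% rose and 5.19% fell. Calls by place and for main peaks were not counted in the genes with 2 peaks and were not tested. They are therefore not read as a trait of the 83 genes. Called peaks were found in tight and in wide genes: in 8 of 30 genes with a span under 100, in 7 of 31 with a span of 100 to 300 and in 4 of 22 with a wider span.

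In the called peaks most of the change lay between the early and the middle library. For the 25 called peaks with at least 3 embryos in every library, the mean share moved by a median of 11.95 percentage points from early to middle and by 3.63 from middle to late, and the first step was the larger in 21. Without the early embryos 3 of the 267 peaks were called, in place of 29. With the library as a term beside position, none was called and none was among all 1215 peaks (0%), while 19 of the 267 (7.12%) had an unadjusted p under 0.05, beside 5.93% of all peaks, and the smallest adjusted p was 0.444. The slopes within libraries had standard errors a median of 3.26 times those of the pooled slopes. Of the 29 called peaks 21 kept the sign of their slope within libraries, the 95% interval held the pooled slope for 25 and held 0 for 24, so for most of them the slope within libraries could not be told from 0 or from the pooled slope.

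**Figure D3:**
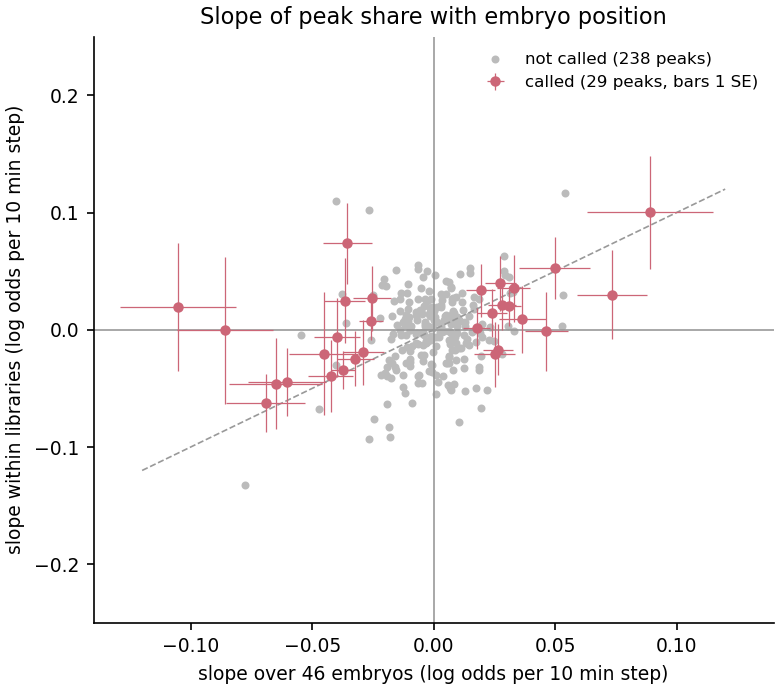
Slope of each peak's share with embryo position over the 46 embryos (x axis) against its slope with the library as a further term (y axis), both in log odds per step of 10 minutes, for the 267 peaks. Red points are the 29 peaks called over all embryos, with bars of 1 standard error, the dashed line marks equal slopes, and the vertical bars are a median of 3.26 times as long as the horizontal ones.

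CJA04724 had the smallest adjusted p of the 267 peaks, and its leading end by summed reads changed after the early library. The gene's main peak was overtaken in 1 of 14 early, 7 of 13 middle and 5 of 10 late embryos, with 3 ties over the course. The lead was thus divided among the middle and late embryos. Its lowest peak, at 2404, had shares of 38.9% to 83.2% (median 66.8%, n = 14) in the early embryos, 20.0% to 66.7% (median 39.1%, n = 13) in the middle and 20.0% to 45.7% (median 38.9%, n = 10) in the late. Its highest peak, at 2545, had 8.70% to 44.4% (median 22.1%), 20.0% to 48.0% (median 39.7%) and 32.4% to 63.6% (median 42.1%). The early embryos were high for the first and low for the second, and the ranges overlapped between libraries. The peak at 2404 fell with a slope of -0.037 ± 0.005 log odds per step (SE, n = 37; adjusted p = 6.7e-07 by quasi-binomial regression), or to 0.688 of its odds per 100 minutes, and the peak at 2545 rose by 0.031 ± 0.005 (adjusted p = 1.1e-05).

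The inner peak of CJA04724, at 2519, also rose (adjusted p = 0.030), though not when the 2-cell embryo was left out (adjusted p = 0.065). Within libraries the slope of the peak at 2404 was -0.034 ± 0.016 (unadjusted p = 0.041, adjusted p = 0.776). The level of the gene itself fell by 1.79 ± 0.31 on the log2 scale from early to middle (adjusted p = 1.3e-06 by edgeR's quasi-likelihood test) and rose by 0.88 ± 0.32 from middle to late (adjusted p = 0.025). By peak, the mean level at 2404 was 928.6 ± 649.9 CPM in the early (SD, n = 16), 150.4 ± 100.7 in the middle (n = 16) and 312.2 ± 224.0 in the late library (n = 14). At 2545 it was 326.5 ± 184.1, 155.0 ± 89.5 and 301.1 ± 191.6 CPM. Both ends were thus lower in the middle window than in the early, by different amounts.

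CJA42729 showed the steepest fall of a share and the second steepest rise. Its highest peak, at 569, held a median of 42.9% of the gene's reads in the early embryos (0 to 91.3%, n = 9), 3.62% in the middle (0 to 25%, n = 13) and 0 in the late (0 to 8.08%, n = 8). Its middle peak, at 467, had medians of 28.6% (0 to 83.3%), 84.0% (50% to 91.2%) and 86.1% (74.1% to 100%). The slope of the peak at 569 was -0.105 ± 0.024 (n = 30, adjusted p = 9.1e-04 by quasi-binomial regression) and that of the peak at 467 was 0.073 ± 0.014 (adjusted p = 3.0e-04).

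The early embryos of CJA42729 did not move in a single direction. The peak at 467 led in the 1-cell embryo with 65.6% of 32 reads. At 30, 50 and 70 minutes the peak at 569 led with 52.4% of 21 reads, 83.3% of 24 and 91.3% of 23, and at 50 minutes the peak at 467 had no reads. At 100 minutes the peak at 467 led again with 75% of 20 reads. Within libraries the slopes of both peaks were smaller than their standard errors (0.019 ± 0.055 at 569 and 0.030 ± 0.038 at 467), and without the early library neither passed (adjusted p = 0.953 and 0.618). The mean level of the peak at 569 was 38.4 ± 33.9 CPM (SD, n = 16), 20.3 ± 24.5 (n = 16) and 23.0 ± 48.8 (n = 14), and that of the peak at 467 was 62.9 ± 94.5, 386.5 ± 282.2 and 187.4 ± 136.9. These means take in all embryos, also those with under 5 reads of the gene, which the shares leave out. In a shallow embryo a single read makes a large CPM.

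CJA01121, the gene with the widest span, had the highest shares of its far peak in early embryos. The peak at 9745 had shares of 0 to 41.6% (median 9.69%, n = 8) in the early embryos, 0 to 15.0% (median 0, n = 10) in the middle and 0 to 7.14% (median 0, n = 8) in the late. At 30 minutes it held 62 of 149 reads of the gene and at 50 minutes 26 of 89, the 2 highest shares of the course. It held 3 of 32 reads in the 1-cell embryo and 6 of 60 at 70 minutes, and at most 3 reads in any middle or late embryo. The share fell with position (slope -0.086 ± 0.020, n = 26, adjusted p = 6.2e-04 by quasi-binomial regression) and the share of the main peak, at 2965, rose (0.046 ± 0.009, adjusted p = 4.2e-04). The adjusted p of the far peak was 0.0073 without the embryo at 30 minutes. The within-library slope of the far peak was -0.0005 ± 0.063, and without the early library its slope did not pass (adjusted p = 0.757).

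The steepest rise belonged to the lowest peak of CJA35199, at 211, and rested on few reads. The gene had 557 reads and at least 5 of them in 15 embryos, 12 early and 3 middle. The share was 5.88% to 40% (median 20.1%) in the early embryos and 23.5%, 27.8% and 77.8% in the middle ones, the last from 9 reads at 200 minutes. The groups overlapped. The slope was 0.089 ± 0.026 (adjusted p = 0.042 by quasi-binomial regression), and the adjusted p was 0.266 without the embryo at 200 minutes.

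In CJA06335 the division of reads did not follow a straight course. The values that follow are examples, picked by no set rule from the 35 embryos measured. The highest peak, at 5999, held 42.2% of 341 reads in the 1-cell embryo, 67.4% of 402 at 30 minutes and 80.8% of 130 at 100 minutes. It held 79.5% of 132 at 170 minutes, 65.7% of 210 at 220 minutes and 33.3% of 96 at 430 minutes. Over embryos its median share was 67.4% (30.6% to 100%, n = 15) in the early, 65.7% (38.1% to 85.7%, n = 11) in the middle and 33.3% (16.7% to 53.3%, n = 9) in the late library. The peak at 5533, its lower neighbour, led in the summed late reads with 43.7% after 21.3% in the early and 18.7% in the middle, and its rise over the course (0.025 ± 0.008, n = 35) passed at an adjusted p of 0.047 by quasi-binomial regression, though not without the embryo at 370 minutes (adjusted p = 0.130).

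The straight trend of the peak at 5999 did not pass (adjusted p = 0.124), but its slope differed between libraries (adjusted p of the interaction 0.0026 by quasi-binomial regression): it was 0.136 ± 0.029 within the early, -0.111 ± 0.031 within the middle and 0.048 ± 0.041 within the late library. The slopes of the peak at 5533 were -0.126 ± 0.032, 0.140 ± 0.047 and -0.026 ± 0.053 (adjusted p of the interaction 0.016). These were the only interactions called among the 267 peaks (34, or 12.7%, at an unadjusted p under 0.05, beside 8.95% of all peaks), beside 5 of the 1207 peaks of all genes for which the interaction could be fitted (0.414%). Since barcode numbers run upwards with time in the early library and downwards in the middle one, the share of these peaks also follows barcode number. A fit of barcode number within libraries, chosen after the values were seen, called both of them (adjusted p = 0.0099 each), as well as CJA12295 at 1071 and CJA00408 at 669 (adjusted p = 0.021 each). These 4 of 267 peaks stand beside 0.658% of all peaks called in that fit, and a rise and fall with time and a trend with barcode number cannot be told apart here.

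**Figure D4:**
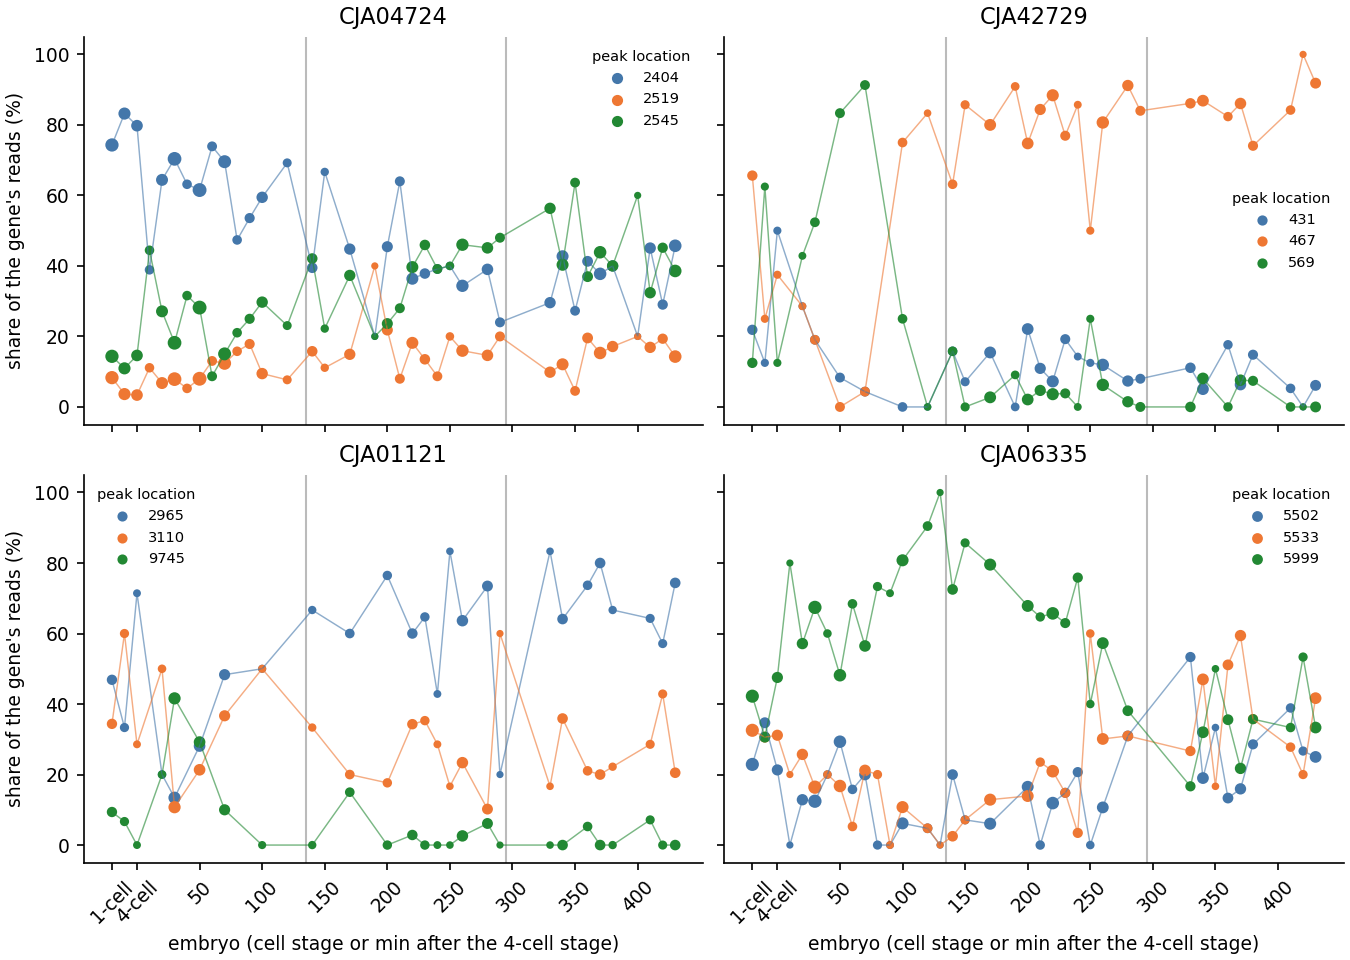
Share of each peak (% of the gene's reads) in each embryo along the course for CJA04724, CJA42729, CJA01121 and CJA06335. Each colour is a peak, named by its location, the size of a point grows with the reads of the gene in that embryo, grey lines separate the early, middle and late libraries, and embryos with under 5 reads of the gene are left out. The peak of CJA42729 at 569 reaches 91.3% at 70 minutes, the far peak of CJA01121 is highest at 30 and 50 minutes, and the peak of CJA06335 at 5999 is at 33.3% in the last embryo.

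The levels of the genes were taken from their total rows, which include reads outside the listed peaks. They differed at 1 or both of the steps between neighbouring windows in most of the genes. Levels are CPM, counts per 1000000 reads of the 1656 genes that passed a filter on low counts, corrected by TMM factors. Of the 83 genes 80 were among them. The other 3 had 582 to 801 reads and are not counted here. By edgeR's quasi-likelihood test, 56 of the 80 (70%) differed between the middle and the early window (60.6% of all genes tested did), 28 higher (35% of all genes) and 28 lower (25.6% of all). With DESeq2 size factors in place of TMM factors 61 differed, 18 higher and 43 lower (365 and 750 of all genes), and the median change over all genes was -0.49 on the log2 scale in place of 0.16. The median log2 change of the 80 genes was 0.02 with TMM factors, so it lay below the median of all genes under both scalings (-0.69 with DESeq2 size factors).

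From the middle to the late window 25 of the 80 genes (31.25%) differed (32.1% of all genes tested did), 14 higher (17.6% of all) and 11 lower (14.6% of all). With library size alone as the scaling 33 differed, 10 higher and 23 lower (227 and 424 of all genes), with the median of all genes at -0.22 in place of 0.05. With DESeq2 size factors the counts were 13 higher and 18 lower, beside 265 and 312 of all genes. Without the embryos at 330 and 340 minutes there were 9 higher and 20 lower, beside 184 and 398 of all genes. Of the 80 genes, 11 (13.75%) were higher at both steps, 6 (7.5%) were lower at both and 18 (22.5%) differed at neither, beside 10.6%, 5.13% and 29.5% of all genes. Level changes were found in 13 of the 19 genes with a changing peak share and in 43 of the other 61 at the first step, and in 9 and 16 at the second.

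**Figure D5:**
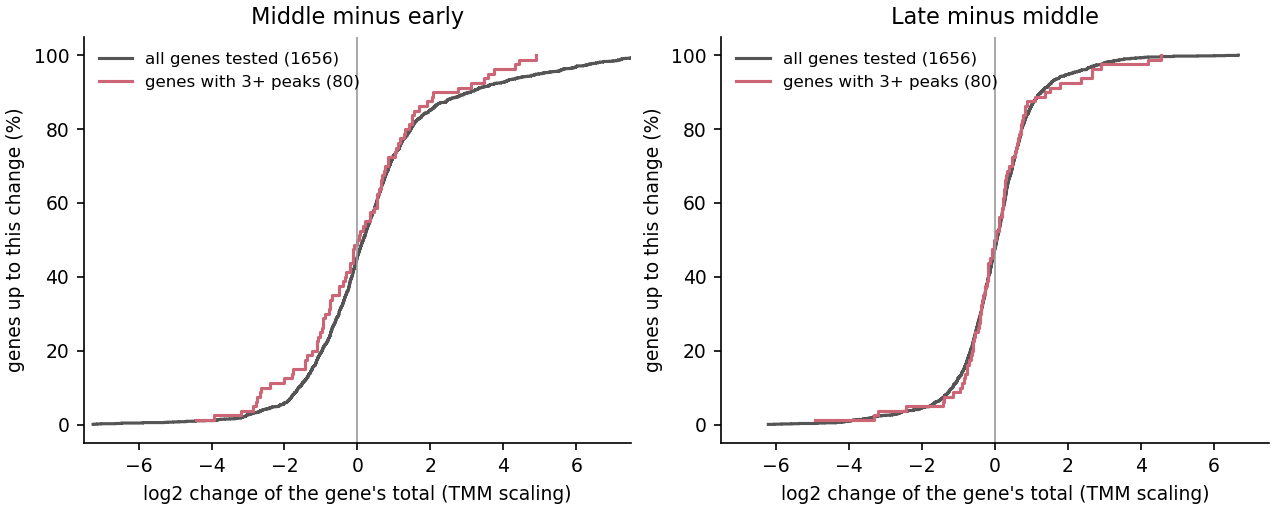
Cumulative percentage of genes by log2 change of the gene's total (TMM scaling) from the early to the middle window (left) and from the middle to the late window (right), for the 80 genes with 3 or more peaks that passed the filter on low counts and for all 1656 genes tested. The median of the 80 genes is 0.02 on the left, beside 0.16 for all genes, and both medians lie near 0 on the right.

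The genes with the largest changes in level were nearly silent at one end of the course. CJA31115 had 258 to 3408 CPM (median 1138, n = 16) in the early embryos and 0 to 260 CPM (median 15.4, n = 16) in the middle ones, with an overlap of the groups at their edges, and fell by 4.43 ± 0.44 on the log2 scale (adjusted p = 9.1e-13 by edgeR's quasi-likelihood test). CJA18031 had 634 to 5849 CPM (median 2289) in the early, 0 to 544 (median 71.1) in the middle and 0 to 10.1 (median 0, n = 14) in the late embryos. It fell by 3.92 ± 0.41 at the first step (adjusted p = 3.1e-12) and by 4.93 ± 0.68 at the second (adjusted p = 5.8e-08), where the late library held 4 of its reads. As this gene faded, the share of its highest peak, at 3192, also fell, from a median of 19.4% (10.5% to 41.7%, n = 15) to 4.69% (0 to 22.2%, n = 7), with an adjusted p of 0.0038 by quasi-binomial regression. CJA20150 had a median of 721 CPM in the early and 55.3 in the middle embryos, had 9 reads in the late library and fell by 3.31 ± 0.59 at the second step (adjusted p = 1.0e-05).

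Other genes came on late. CJA05199 had 0 to 26.7 CPM (median 0) in the early, 0 to 886 (median 72.7) in the middle and 0 to 4499 (median 1072) in the late embryos, so the range of each library lay within that of the next. It rose by 4.88 ± 0.74 on the log2 scale at the first step (adjusted p = 9.2e-08 by edgeR's quasi-likelihood test). Its main peak, at 1775, rose in share from a median of 45.6% (0 to 61.1%, n = 8) in the middle to 56.8% (38.5% to 73.8%, n = 10) in the late embryos (adjusted p = 0.035 by quasi-binomial regression), while its lowest peak, at 1690, fell (adjusted p = 0.021). Both calls were lost when a single embryo was left out (adjusted p = 0.082 without the embryo at 420 minutes and 0.056 without the one at 200 minutes).

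CJA15042 had 1 read in the early library, 62 in the middle and 1125 in the late. The ratio of reads relative to depth between the middle and the early library was 55.5, with a 95% exact counting interval of 9.59 to 2226, and the gene rose by 4.54 ± 0.48 on the log2 scale from the middle to the late window (adjusted p = 7.4e-11 by edgeR's quasi-likelihood test). In the late library its widely spaced peaks at 4561, 4949 and 5274 held 44.0%, 26.0% and 21.0% of the reads. CJA13899 had 0 to 556 CPM (median 29.9) in the middle and 277 to 4628 (median 2328) in the late embryos and rose by 4.20 ± 0.49 at that step (adjusted p = 8.6e-10). The peak at 5552 held 84.8% of its reads and was not overtaken in any of 17 embryos, with 1 tie. By the inverse of its summed squared shares, 1.24, it had the most uneven use of its peaks among the 83 genes.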

How the data were processed

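The values deposited by the authors are raw counts of reads, whole numbers for each 3′ end peak and each gene. CASAVA 1.8, Bowtie2 2.1.0 and HTSeq 0.5.4p3 are listed in the submitters' processing notes without their roles. How peaks were called, and on which build, is not given in the sources used here. Embryo columns were matched to times through the deposited sheet of embryos. No molecular identifiers are named, so intervals cover counting error only. Each embryo is a separate animal of its own age, so p-values measure the spread between embryos.

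Shares were tested in embryos where the gene had 5 or more reads, for genes with 10 or more such embryos, by quasi-binomial logistic regression with a two-sided F test (dispersion of at least 1; Python 3.11.15, numpy 2.4.6, scipy 1.17.1). The planned fit, with equal weight for every read, gave too many false calls on simulated data. The reads of an embryo were therefore down-weighted by a correlation of 0.014 between reads, estimated from the table. On simulated data for this test the weighted fit recovered 173 of 200 slopes among 1215 peaks, with 5 false calls. A correlation between reads was built into the simulated data, so the comparison of the fits rests on it. The slopes put in were all of the same size, larger than the median size of the called slopes, 0.037 log odds per step. Gene totals were tested with edgeR 4.0.16 (R 4.3.3; filterByExpr, TMM, quasi-likelihood F test, all embryos in 1 fit with 3 groups). For middle against early, 115 of 131 simulated 8-fold changes were recovered among 1357 genes, with 10 false calls. P-values were adjusted by the Benjamini-Hochberg method over every peak or gene in the fit. DESeq2 1.42.0, limma 3.58.1 and diffSpliceDGE of edgeR were alternatives.

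Named genes are the 3 with the most peaks, the 5 with the most reads, the steepest 2 rises and 2 falls in share, up to 6 whose leading peak differed between libraries, the 2 widest and 2 narrowest, and the 2 largest rises and falls in level per comparison. CJA05854, CJA15342, CJA08650 and CJA00408 were named after their values were seen. The genes and the lists were chosen with earlier results of these data known.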

Additional observations from a re-analysis of the deposited data

Results flagged for a closer look

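In CJA06335 the slope of share with position differed between libraries for the peak at 5533 (adjusted p of the interaction 0.0165 by quasi-binomial regression over all peaks) and for the peak at 5999 (adjusted p = 0.00259). The peak at 5999 had a positive slope within the early library and a negative one within the middle library, and the peak at 5533 had the opposite signs.

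Single embryos stood far from the others of their library in 3 of 29 sets of shares examined. The limits used flag about 1 in 20 sets of independent, normally distributed values of equal spread. Shares from few reads are not such values, so that rate may not hold here. The peak of CJA01121 at 3110 held 60% of the reads in the embryo at 290 minutes, next to 35.3% in the nearest other of the 10 middle embryos, from 5 reads of the gene. The far peak of that gene, at 9745, held 15% at 170 minutes, next to 6.12%, from 20 reads. The peak of CJA14682 at 5501 held 66.7% at 100 minutes, next to 30.9% in the nearest other of the 8 early embryos, from 15 reads.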

How the results depend on the processing

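The count of 29 peaks changing with position was 3 without the early library, 17 without the late library and 7 with edgeR's diffSpliceDGE, and it ran from 23 to 33 when single embryos were left out. Without each embryo in turn, 19 of the 29 peaks, in 11 genes, were always called. Of the 29, 28 were called by limma on arcsine shares, 6 by diffSpliceDGE, 26 without the shallow embryos and 26 without the embryos at 330 and 340 minutes. The planned fit without down-weighting called 42 of the 267 peaks, among them 25 of the 29; the weights behind the count of 29 were chosen after the data were seen. Within libraries the count stayed 0 under the alternatives for reads per embryo, shallow embryos, the embryos at 330 and 340 minutes and weighting, and was 4 with barcode number in place of position. The median gap of 46 became 51.5 when peaks with under 10% of the gene's reads were dropped. The rise of the CJA35199 peak at 211 was lost under 6 other settings and without any of 11 embryos, with slopes from 0.058 to 0.110 over all single embryos left out. The slopes of the peaks at 467 and 569 of CJA42729 and at 9745 of CJA01121 did not pass without the early library, and that at 467 did not with diffSpliceDGE. No peak named for its steep slope and no gene named for its large change in level changed direction. The balance of higher and lower calls in level turned with the scaling and without the embryos at 330 and 340 minutes, as reported above. The levels of the genes named for the largest changes in level kept their direction and their side of the threshold under each alternative that could be fitted. Levels of genes named for other reasons, such as CJA14682 and CJA04724, were not followed singly through these alternatives. No paired analysis was possible because each library is a single sample and each time has 1 embryo. The causes of these differences were not tested. Depth limits the shares: in an embryo with 5 reads of a gene a single read is 20% of them.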
